A study of Mus musculus with 12 samples.

Results

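The serotonin receptor genes are 10 of the 41388 genes counted in sorted sensory neurons of mouse dorsal root ganglia: Htr3a and Htr3b, which encode subunits of the 5-HT3 ion channel, and Htr1a, Htr1b, Htr1d, Htr1f, Htr2a, Htr2b, Htr4 and Htr7, which encode G protein-coupled receptors. They were taken by gene symbol, each symbol matched 1 Ensembl identifier, and all 10 had counts in the tables. Per the study description, the neurons came from C57BL/6 mice aged 3 months that were heterozygous for a floxed Ret knock-in allele with EGFP (RetFloxedEGFP) and carried Cre recombinase in the NaV1.8 gene (Scn10a<tm2(cre)Jnw>), so that EGFP appeared after Cre excision in cells with an active Ret locus. For the 8 libraries whose title has the form RetFloxEGFP, in both levels, the genotype field names both alleles. The other 4 libraries have the title form 9CGNAV: there the field of female L6S1 B and C names the Cre allele only, and that of female L345 D and male L6S1 C the RetFloxedEGFP allele only. No group is labelled as having both Ret alleles intact.

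The 12 libraries formed 4 groups of 3: female L6S1 and male L6S1, made from ganglia of spinal levels L6 and S1, and female L345 and male L345, made from levels L3, L4 and L5. Each library came from a pool of 2 to 8 mice and 12 to 32 ganglia, sorted for EGFP, so a value is a mean over animals and over every neuron class that passed the gate. The labels do not tell whether the same mice gave ganglia to an L6S1 and an L345 pool, and p-values measure the spread between pools. Total counts ran from 16176436 to 26694404 per library. Levels are given as CPM, the count relative to the library's total after TMM scaling between libraries. The genes that define the sort were present in all libraries: Scn10a averaged 429 ± 66.5 CPM at L6S1 and 573 ± 96 CPM at L345, and Ret 165 ± 33.6 CPM at L6S1 and 176 ± 27.5 CPM at L345 (SD, n = 6 each). Neither passed the level test, and transcripts of other cells were also present: the summed level of 8 glial genes, Pmp22 and Apoe foremost, was 3753 to 4641 CPM at L6S1 and 3603 to 4322 CPM at L345.

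Serotonin in a ganglion's target tissue comes mainly from enterochromaffin cells of the gut, platelets and, in rodents, mast cells, and reaches the endings of sensory neurons. The 5-HT3 receptor is a pentameric cation channel that depolarises the ending at once: the A subunit can form a channel alone, and the B subunit needs the A subunit. All other serotonin receptors act through G proteins. The 5-HT1 receptors couple to Gi and Go and lower cyclic AMP, the 5-HT2 receptors couple to Gq and phospholipase C, and 5-HT4 and 5-HT7 couple to Gs and raise cyclic AMP. Ganglia at L6 and S1 supply the pelvic organs through the pelvic nerve as well as skin and muscle, and those at L3 to L5 supply mainly the hind limb.

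Members of this family are similar in coding sequence, and reads could in principle be split between them, so the longest identical stretches were looked up in the longest transcripts of GENCODE M21 (GRCm38). The 2 channel subunits and the pair that shares the longest stretch are printed, 12 bases of flank on each side in lower case and the shared run in capitals, 5′ to 3′ on the coding strand.
Htr3a, from base 382 of the open reading frame: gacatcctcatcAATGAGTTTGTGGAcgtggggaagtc
Htr3b, from base 349 of the open reading frame: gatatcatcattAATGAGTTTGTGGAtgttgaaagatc
Htr1b, from base 430 of the open reading frame: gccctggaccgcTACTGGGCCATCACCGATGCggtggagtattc
Htr1d, from base 400 of the open reading frame: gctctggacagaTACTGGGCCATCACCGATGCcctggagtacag
The positions are those of the first capital. Htr3a and Htr3b shared at most 14 identical bases in a row, and Htr1b and Htr1d 20, which was the longest run among the 45 pairs (range 11 to 20 bases). No pair therefore shared a stretch longer than 20 bases. Of the 10 genes, 8 had no exon overlapped by another gene. Htr1b had 852 exonic bases overlapped by D430036J16Rik and Htr2b 252 by Psmd1, and since the strand setting of the counting is not given, reads in those bases cannot be assigned with certainty.

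On a per-length scale (TMM-scaled RPKM, the CPM divided by the exon length in kilobases), Htr3a was the most abundant of the 10 genes, at 31.3 ± 18.2 RPKM over the 12 libraries (SD). Htr1f followed at 9.46 ± 3.53, Htr1d at 8.39 ± 1.55, Htr1a at 6.68 ± 1.26 and Htr3b at 6.11 ± 1.21 RPKM. Htr4 stood at 3.77 ± 0.66, Htr1b at 3.01 ± 0.804 and Htr2a at 2.5 ± 0.628 RPKM. Htr7 and Htr2b were far lower, at 0.201 ± 0.148 and 0.0816 ± 0.043 RPKM. Neighbours in this order were mostly within each other's spread. Htr1f exceeded Htr1d in 8 of 12 libraries, Htr1a exceeded Htr3b in 8, and Htr1b exceeded Htr2a in 9. The gap between Htr2a and Htr7 was larger than the sum of their SDs and held in 12 of 12 libraries, as did the gap between Htr3b and Htr4 in 11. Htr3a exceeded Htr1f in 11 libraries, the exception being at L345, where male L345 B had more Htr1f.

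**Figure D1:**
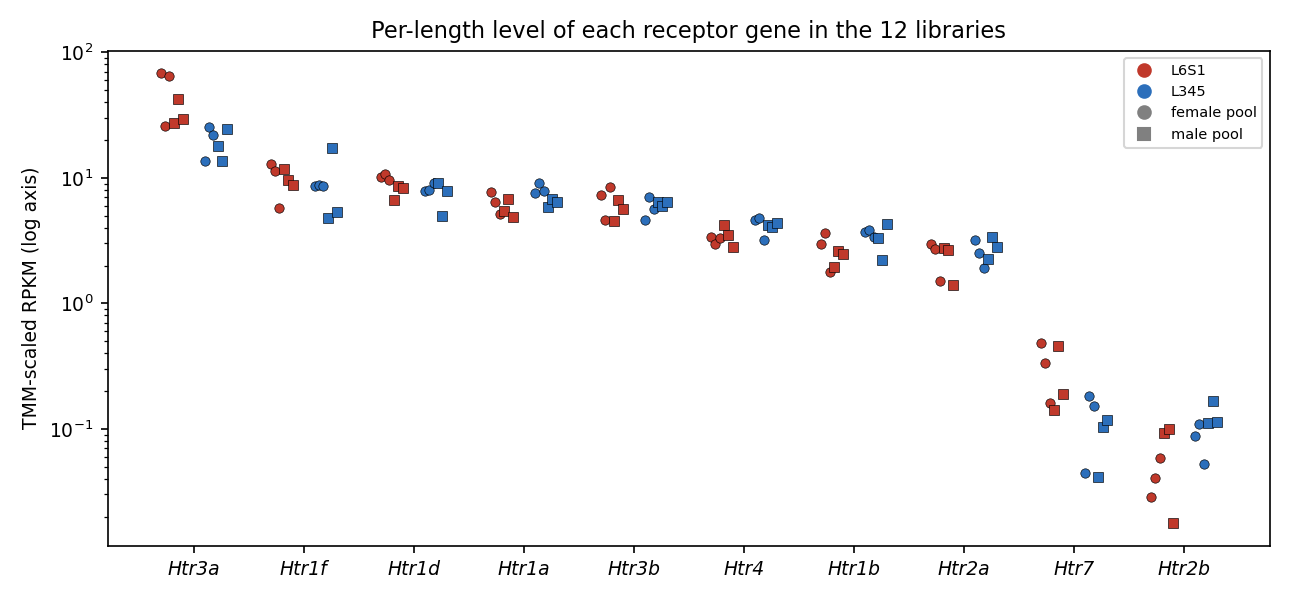
Per-length level of the 10 serotonin receptor genes in each library, as TMM-scaled RPKM on a log axis, ordered by the mean over 12 libraries. Red points are L6S1 and blue points L345, circles are female and squares male pools; Htr3a lies highest and Htr7 and Htr2b lie below 1 RPKM in every library.

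Of the 9 genes with enough counts to be tested between levels, Htr3a alone passed, and it was higher at L6S1. A gene was called where its Benjamini-Hochberg adjusted p lay under 0.05 in edgeR's quasi-likelihood test fitted to all 15281 genes that passed the count filter, with 1 mean for each of the 4 groups. By that rule 2.33% of all tested genes were called between levels (356 genes; 1.45% were called higher at L6S1), and with 1 gene of 9 called nothing is read from the count about the family. The median log2 fold change of the 9 genes was 0.05, against -0.06 for all tested genes. In 5 of the 9 the fitted value was above 0, and in 4 below. An unadjusted p under 0.05 was found for 4 of them (Htr3a, Htr7, Htr4 and Htr1b) and for 26.6% of all tested genes. By DESeq2 2 of the 9 were called (Htr3a and Htr7), against 9.93% of all tested genes, and by limma-voom 3 (Htr1b, Htr3a and Htr7), against 21.4%. Of these, Htr7 passed the count filter only through the L6S1 pools, where it is high.

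**Figure D2:**
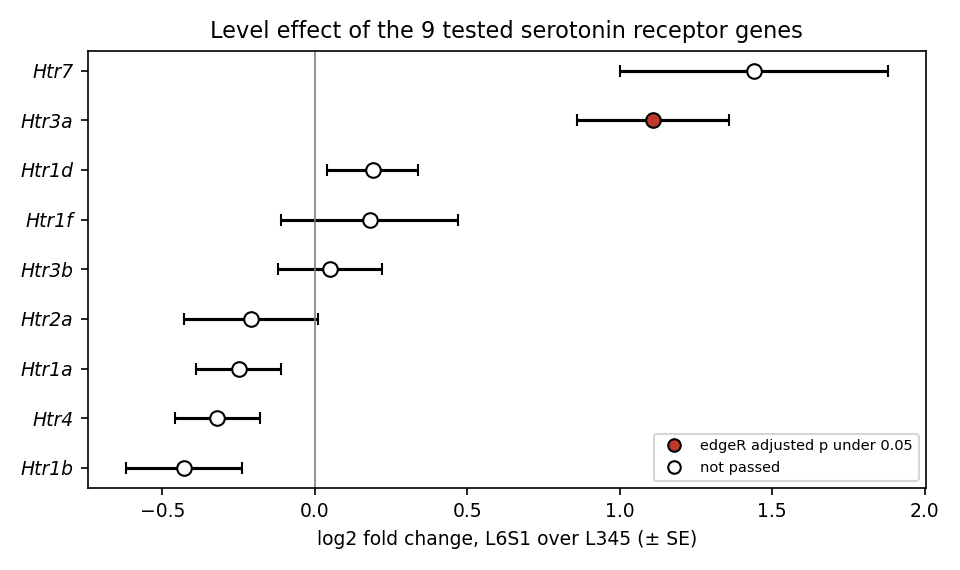
Log2 fold change of the 9 tested receptor genes, L6S1 over L345, with its standard error as bars; the filled point passed the edgeR test at an adjusted p under 0.05. Htr7 and Htr3a lie above 1, and the other 7 genes lie between -0.43 and 0.19.

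The transcript of the A subunit of the 5-HT3 channel was 2.22 times as abundant at L6S1 as at L345, and that of the B subunit was 1.04 times as abundant. Htr3a (ENSMUSG00000032269, chromosome 9, 48899214 to 48911099, minus strand, GRCm38) had 142, 53.9 and 136 CPM in female L6S1 A, B and C and 57.2, 88.5 and 61.4 CPM in male L6S1 A, B and C. It had 28.1, 52.5 and 45.5 CPM in female L345 B, C and D and 37.1, 28.2 and 51.5 CPM in male L345 A, B and C. The levels did not overlap: the lowest L6S1 pool, female L6S1 B at 53.9 CPM, lay just above the highest L345 pool, female L345 C at 52.5 CPM. Such complete separation, in either direction, was seen in 3.24% of all tested genes, and in 2.02% with L6S1 above.

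Htr3a averaged 89.8 ± 39.9 CPM at L6S1 and 40.5 ± 11 CPM at L345 (SD, n = 6 each), a ratio of 2.22. The fitted log2 fold change was 1.11 ± 0.25 (SE; edgeR adjusted p = 0.0368), and 6 of 6 L6S1 pools lay above the L345 mean of their sex. The spread was widest in female L6S1, where pools A and C lay far above pool B, and the coefficient of variation there was 44.4%, against 24.6% in male L6S1, 29.9% in female L345 and 30.2% in male L345.

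The size of the Htr3a difference varied less than its call. The log2 value was 1.17 with the title form as a covariate (edgeR adjusted p = 0.0688, with 0.818% of all genes called), 1.35 in the 8 libraries of the RetFloxEGFP title form alone (adjusted p = 0.0631, 3.12% called) and 1.10 with no count filter (adjusted p = 0.0752, 3.15% called). With single libraries left out it was 1.00 to 1.28, and 9 of these 12 fits no longer called Htr3a: those without female L6S1 C, without male L6S1 A, B or C, without female L345 B or C, or without male L345 A, B or C, with adjusted p from 0.0555 to 0.1.

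Htr3b (ENSMUSG00000008590, chromosome 9, 48935008 to 48964990, minus strand) lies 23.9 kb from Htr3a. It had 17.7, 11.2 and 20.5 CPM in female L6S1 A, B and C and 11, 16.1 and 13.5 CPM in male L6S1 A, B and C, against 11.1, 17 and 13.5 CPM in female L345 B, C and D and 15.4, 14.3 and 15.6 CPM in male L345 A, B and C. The levels overlapped, and 3 of 6 L6S1 pools lay above the L345 mean of their sex. The means were 15 ± 3.78 CPM at L6S1 and 14.5 ± 2.05 CPM at L345, and the fitted log2 value was 0.05 ± 0.17 (edgeR adjusted p = 0.878). Female L6S1 B was the lowest or next to lowest of the L6S1 pools for both subunit genes.

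The per-length ratio of Htr3a to Htr3b separated the levels. It was 9.28, 5.57 and 7.67 in female L6S1 A, B and C and 6.05, 6.37 and 5.27 in male L6S1 A, B and C, against 2.94, 3.58 and 3.9 in female L345 B, C and D and 2.8, 2.29 and 3.83 in male L345 A, B and C. All L6S1 ratios lay above all L345 ratios, with means of 6.7 ± 1.51 at L6S1 and 3.22 ± 0.646 at L345 (SD, n = 6 each). The ratio was formed after the difference in Htr3a was known and is given without a test.

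**Figure D3:**
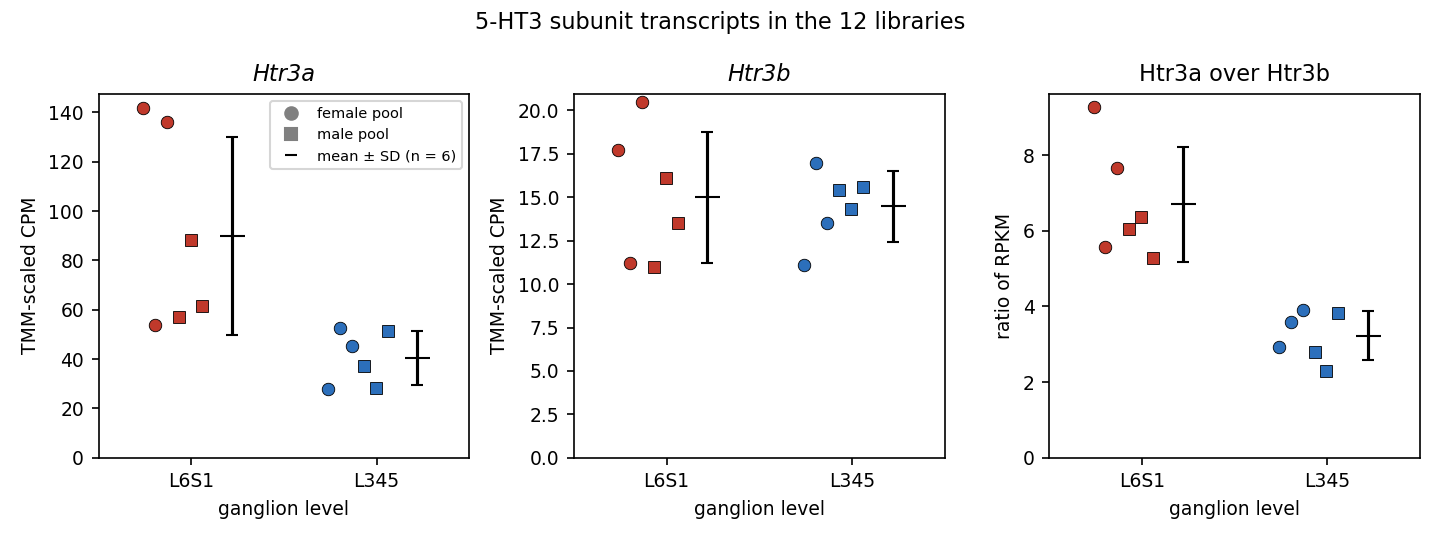
Htr3a and Htr3b in TMM-scaled CPM, and the ratio of their RPKM, in each library of L6S1 (left of each panel) and L345 (right); circles are female and squares male pools, with mean ± SD of 6 pools beside them. Htr3a and the ratio do not overlap between levels, and Htr3b does.

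Htr3a therefore made up more of the summed transcripts of these 10 genes at L6S1. A further serotonin receptor gene, Htr5b, at 18.3 RPKM over the 12 libraries, is not among the 10 and not in these sums. It held 37.7 to 64.6% of the summed RPKM of the 10 genes at L6S1 (mean 50.1 ± 10.1%) and 23.1 to 39.6% at L345 (mean 32.1 ± 6.54%; SD, n = 6 each), and these ranges overlapped at female L6S1 B. The sum of all 10 genes was 83 ± 21.5 RPKM at L6S1 and 60 ± 5.98 RPKM at L345. The sum of the other 9 genes was 39.9 ± 5.08 RPKM at L6S1 and 40.5 ± 3.52 RPKM at L345, a difference smaller than either SD.

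Other transcripts differed between levels beside Htr3a. The summed level of 5 genes of peptidergic nociceptors was 9796 to 15754 CPM at L6S1 and 8793 to 9913 CPM at L345. Of these, 3 were called higher: Gal, the galanin gene (503 ± 76.7 CPM at L6S1 and 229 ± 65.1 CPM at L345), Tac1, the substance P precursor (3519 ± 630 CPM at L6S1 and 2349 ± 145 CPM at L345), and Trpv1, the capsaicin receptor (779 ± 81.9 CPM at L6S1 and 543 ± 90.6 CPM at L345). Calca made up the largest part of the sum (8140 ± 1829 CPM at L6S1 and 6144 ± 286 CPM at L345) and was not called (edgeR adjusted p = 0.0956). The highest peptidergic sum was that of female L6S1 B, the L6S1 pool with the least Htr3a. Female L6S1 C was close to it, with a sum of 15475 CPM and 136 CPM of Htr3a. The summed level of 5 fibroblast genes was 125 to 323 CPM at L6S1 and 68.3 to 92.2 CPM at L345, most of it Dcn, which was called higher at L6S1. The other 4 fibroblast genes were not called, and 1 of them had a fitted value below 0. The summed level of 6 immune genes was 6.77 to 154 CPM at L6S1 and 2.5 to 4.86 CPM at L345, with Cd74 and C1qb called higher, C1qa at 0 in 4 of 6 L6S1 pools and in 6 of 6 L345 pools, and the 154 CPM in female L6S1 C. Gal, Dcn and C1qb stayed called in all 12 fits with 1 library left out, whereas Tac1 lost its call in 7 of them, Trpv1 in 9 and Cd74 in 8. The part of these transcripts in the Htr3a difference was not tested. Like the peptidergic sum, the sums of the remaining marker lists overlapped between levels, and these lists held no called gene, except Lpar3 of the Mrgprd list, which was called lower (46.1 ± 9.53 CPM at L6S1 and 71 ± 14.7 CPM at L345) and lost its call in 10 of those 12 fits. Their sums were 546 to 858 CPM at L6S1 and 581 to 962 CPM at L345 for the Mrgprd class, 98.8 to 231 CPM at L6S1 and 76.2 to 154 CPM at L345 for the Mrgpra3 class, and 1139 to 1439 CPM at L6S1 and 734 to 1172 CPM at L345 for C low-threshold mechanoreceptors. The myelinated class summed to 97.7 to 165 CPM at L6S1 and 104 to 204 CPM at L345, and smooth muscle genes to 206 to 413 CPM at L6S1 and 197 to 301 CPM at L345. Most of the smooth muscle sum was Rgs5 (286 ± 76.7 CPM at L6S1 and 245 ± 43 CPM at L345). Tagln, Acta2 and Myh11 averaged only 2.83, 2.05 and 0.599 CPM at L6S1 and 0.881, 0.356 and 0.189 CPM at L345. Mast cell, red cell and endothelial genes each summed to under 8 CPM in every library, with the mast cell genes Tpsab1 and Mcpt4 at 0 in all 12. In pooled bulk RNA, fewer cells of a type and less RNA per cell cannot be told apart.

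The genes whose profile over the 12 libraries was most like that of Htr3a were Hhatl, Sv2b, Pxylp1, Nrsn2 and Thy1. Likeness was the root mean square difference between log2 CPM profiles, each centred on its mean, over the 11666 genes that averaged 2 CPM or more, and these 5 lay at 0.276, 0.278, 0.282, 0.357 and 0.36, against a median of 0.799. Since they were picked for likeness to a gene known to differ between levels, their own levels are given without a test. Sv2b, which encodes a synaptic vesicle protein, had 49.1 ± 17.1 CPM at L6S1 and 24.1 ± 8.86 CPM at L345, and Nrsn2, a neurensin gene, 19.8 ± 4.43 CPM at L6S1 and 8.27 ± 1.11 CPM at L345 (SD, n = 6 each). Htr3b ranked 481 by this measure, at 0.596. The genes most like Htr3b were Manba, Gpr153, Aasdh, Sall2 and Yrdc, at 0.158 to 0.182 against a median of 0.405.

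None of the 4 Gi/Go-coupled 5-HT1 receptor genes passed the level test, and their summed per-length level differed by less than its spread: 27.6 ± 4.51 RPKM at L6S1 and 27.4 ± 3.3 RPKM at L345. Their share of the family was 34.8 ± 8.66% at L6S1 and 46 ± 5.83% at L345 (SD, n = 6 each), with Htr3a in the denominator. Htr1a and Htr1b had fitted values below 0, and Htr1d and Htr1f above 0.

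Htr1a (chromosome 13, 105443693 to 105448133), the autoreceptor gene of brainstem serotonin neurons, had 34.4, 28.6 and 23 CPM in female L6S1 A, B and C and 24.3, 30.1 and 21.6 CPM in male L6S1 A, B and C, against 33.4, 40.7 and 35 CPM in female L345 B, C and D and 26.2, 30.3 and 28.3 CPM in male L345 A, B and C. In 5 of 6 L6S1 pools the value was under the sex's L345 mean, and the levels overlapped. The log2 fold change was -0.25 ± 0.14 (edgeR adjusted p = 0.246).

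Htr1b and Htr1d encode the receptors that triptan drugs act on. Htr1b (chromosome 9, 81628291 to 81633828) had 14, 17 and 8.46 CPM in female L6S1 A, B and C and 9.13, 12.4 and 11.8 CPM in male L6S1 A, B and C, against 17.5, 18.2 and 15.9 CPM in female L345 B, C and D and 15.8, 10.4 and 20.2 CPM in male L345 A, B and C. Each of the 6 L6S1 pools was under its sex's L345 mean, but the ranges overlapped, and the log2 fold change of -0.43 ± 0.19 did not pass (edgeR adjusted p = 0.173). Htr1d (chromosome 4, 136423524 to 136444398) had 32.4, 34.2 and 30.5 CPM in female L6S1 A, B and C and 21.2, 27.3 and 26.5 CPM in male L6S1 A, B and C, against 25.3, 25.6 and 29.2 CPM in female L345 B, C and D and 29.2, 15.9 and 25 CPM in male L345 A, B and C. The 3 female L6S1 pools were the highest of the 12, and the log2 fold change between levels was 0.19 ± 0.15 (edgeR adjusted p = 0.42).

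Htr1f, the gene of the receptor that lasmiditan acts on, was more variable between pools than between levels. Htr1f (chromosome 16, 64924729 to 65105784) had 32.6, 28.6 and 14.4 CPM in female L6S1 A, B and C and 29.3, 24.1 and 22 CPM in male L6S1 A, B and C. It had 21.5, 21.8 and 21.8 CPM in female L345 B, C and D and 11.9, 43.3 and 13.4 CPM in male L345 A, B and C. The highest and the lowest of the 12 values were thus both male L345 pools, with a coefficient of variation of 77.5% in that group and 0.745% in female L345. The log2 fold change between levels was 0.18 ± 0.29 (edgeR adjusted p = 0.717).

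Pools high in Htr1f were mostly pools high in the genes of a neuron class. In mouse ganglia Htr1f is known from the itch neurons that make the peptides Nppb and Sst. The summed level of 6 genes of that class (Nppb, Sst, Il31ra, Osmr, Cysltr2 and Nts) was 315, 714 and 364 CPM in male L345 A, B and C, in the same order as Htr1f, and the largest sum, 752 CPM in female L6S1 B, went with 28.6 CPM of Htr1f. Among the 6 L345 pools, 5 of these genes were highest in male L345 B (Nppb at 126 CPM against 30.7 in male L345 A and 55.7 in male L345 C), the exception being Il31ra, highest in female L345 C. Of 7 lists of neuron and glial genes, this one lay nearest to the Htr1f profile, at a root mean square difference of 0.281 on the log2 scale, against 0.56 to 0.834 for the other 6. The points are bulk pools that share their library between both axes, so this is a description of 12 pools.

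**Figure D4:**
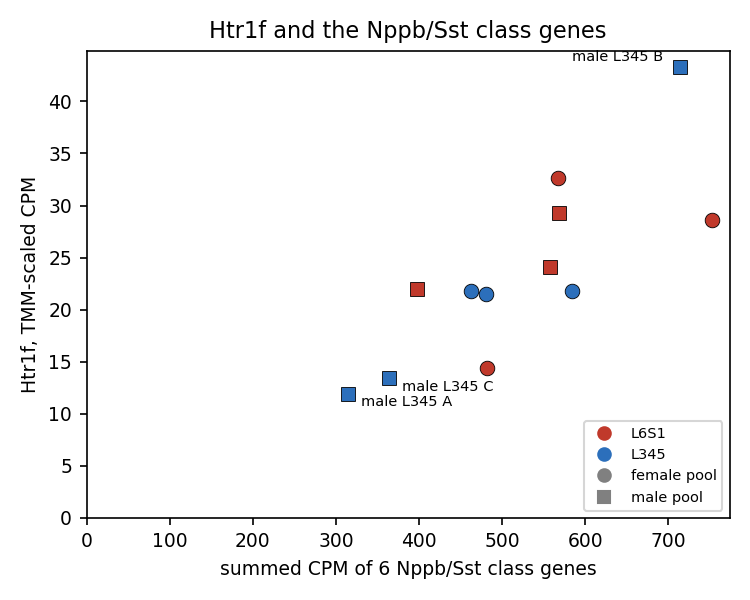
Htr1f in TMM-scaled CPM against the summed CPM of 6 genes of the Nppb/Sst itch class in each of the 12 libraries; red points are L6S1 and blue points L345, circles female and squares male pools. Male L345 B lies at the top right, at 714 CPM of the class and 43.3 CPM of Htr1f, and male L345 A and C at the lower left.

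The same measure placed other receptor genes beside other lists. Htr4 lay nearest to 3 genes of the Mrgprd class of non-peptidergic nociceptors, at 0.175, and next to the glial list, at 0.215. Htr1d lay nearest to 3 genes of C low-threshold mechanoreceptors (Th, Slc17a8 and Tafa4), at 0.177, and next to the peptidergic list, at 0.281. Htr1b and Htr2a lay nearest to the Mrgprd class as well, at 0.402 and 0.348, with the glial list at 0.411 from Htr1b and the Nppb/Sst list at 0.419 from Htr2a. Htr3a was nearest to the peptidergic list, but at 0.561, farther than any of the 5 genes most like it. Htr3b and Htr1a lay nearest to the glial list, at 0.313 and 0.316, and Htr7 to the peptidergic list, at 0.753. A gene that varies little is near any list that varies little, so these distances do not rank genes. The order of lists within a gene also depends on how much each list varies. The nearest distance was larger than the gene's own log2 SD over the 12 libraries for Htr3b (SD 0.284) and Htr1a (SD 0.27). For Htr1b it was about equal to it (SD 0.407). Nothing is read from the nearest list of these genes.

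The Gq-coupled 5-HT2 genes were low and passed no test. Htr2a (chromosome 14, 74640840 to 74706859), the gene of the receptor that mediates platelet responses and many effects of hallucinogens, had 4.18, 7.93 and 8.79 CPM as lowest, median and highest of the L6S1 pools and 5.68, 7.93 and 10.1 CPM of the L345 pools. The ranges overlapped almost wholly, and the log2 fold change was -0.21 ± 0.22 (edgeR adjusted p = 0.562). Htr2b (chromosome 1, 86099026 to 86111970) had 1 to 5 counts in L6S1 pools, 17 in all, and 3 to 7 counts in L345 pools, 32 in all. It did not pass the count filter, and the tables hold too few of its reads to show a difference at this depth: without the filter its log2 value was -0.89 ± 0.65 (edgeR adjusted p = 0.53).

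Of the Gs-coupled genes, Htr7 was higher and Htr4 lower at L6S1 in fitted value, and neither passed the test. Htr7 (chromosome 19, 35958734 to 36057507), a receptor gene that has been tied to itch in mice, was the scarcer, with 27, 26 and 13 counts in female L6S1 A, B and C and 12, 37 and 17 counts in male L6S1 A, B and C, against 4, 16 and 14 counts in female L345 B, C and D and 3, 7 and 10 counts in male L345 A, B and C. In CPM these were 0.476 to 1.65 at L6S1 and 0.142 to 0.625 at L345. Of the 6 L6S1 pools, 4 lay above all L345 pools and all 6 above the L345 mean of their sex. The ratio of the means, 1 ± 0.523 CPM at L6S1 over 0.366 ± 0.195 CPM at L345, was 2.74, and the log2 fold change of 1.44 ± 0.44 was the largest of the 9 genes, but so was its standard error (edgeR adjusted p = 0.0831).

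The Htr7 call turned on the method. It passed with DESeq2 (log2 1.48, adjusted p = 0.0274) and with limma-voom (1.56, 0.0332), and with a glial score as a covariate in edgeR the value was 0.47 (adjusted p = 0.479). Htr7 passed the count filter only through the L6S1 pools, where it is high, so its calls carry little weight.

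Htr4 (chromosome 18, 62324204 to 62467802), whose receptor promotes gut motility, had 15.7, 13.9 and 15.4 CPM in female L6S1 A, B and C and 19.5, 16.2 and 13 CPM in male L6S1 A, B and C, against 21.4, 22.2 and 14.8 CPM in female L345 B, C and D and 19.6, 19 and 20.2 CPM in male L345 A, B and C. It was under the sex's L345 mean in 6 of 6 L6S1 pools, with overlap through male L6S1 A and female L345 D. The means were 15.6 ± 2.23 CPM at L6S1 and 19.5 ± 2.57 CPM at L345, and the log2 fold change was -0.32 ± 0.14 (edgeR adjusted p = 0.17).

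Within each sex, where 3 pools stood against 3, no receptor gene passed. The edgeR rule called 0.360% of all tested genes in females and 0.222% in males, and 2 of the 9 receptor genes, Htr3a and Htr7, had an unadjusted p under 0.05 in each sex, as did 24.0% of all tested genes in females and 8.83% in males. Htr3a averaged 110 ± 49.1 CPM in female L6S1 and 42 ± 12.5 CPM in female L345 (log2 1.39 ± 0.35, adjusted p = 0.112), and 69.1 ± 17 CPM in male L6S1 and 38.9 ± 11.8 CPM in male L345 (log2 0.83 ± 0.35, adjusted p = 0.551; SD, n = 3 each, edgeR). In females DESeq2 called 1 receptor gene, Htr3a (log2 1.43, adjusted p = 0.00442), among 4.91% of all genes, and limma-voom none, among 0.340%. In males DESeq2 called none, among 0.707% of all genes, and limma-voom called 2, Htr1b and Htr1f, among 12.2%. Htr7 had log2 values of 1.33 ± 0.61 in females and 1.54 ± 0.64 in males (edgeR adjusted p = 0.2 and 0.551).

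The level effect was not shown to differ between the sexes for any receptor gene. The difference of the level effects, females minus males, was 0.57 ± 0.49 on the log2 scale for Htr3a (edgeR adjusted p = 0.887), and the 9 genes ranged from -0.21 to 0.57 with adjusted p from 0.885 to 0.994 and none at an unadjusted p under 0.05, as against 4.67% of all tested genes. DESeq2 and limma-voom also called none of them. Among all tested genes edgeR called 0 (0%) for this difference, with 714 at an unadjusted p under 0.05, and DESeq2 and limma-voom called 2 each (0.0131%).

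Between females and males, with both levels weighted alike, no receptor gene passed either. The edgeR rule called 0.0589% of all tested genes, and none of the 9 receptor genes had an unadjusted p under 0.05, as against 5.96% of all tested genes. DESeq2 and limma-voom also called none of them, among 0.203% and 0.0654% of all genes. Their log2 fold changes, female over male, ran from -0.06 to 0.40, with 6 of 9 above 0 and adjusted p from 0.764 to 0.984. The values nearest the threshold were those of Htr1a (0.27 ± 0.14, adjusted p = 0.764) and Htr1d (0.28 ± 0.15, 0.764), and Htr3a had 0.39 ± 0.25 (0.775). These p-values do not show that the sexes were alike.

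Of 4 further serotonin receptor genes of the mouse, none was called between levels. Htr5b, whose human counterpart is not a working gene, was the most abundant per length at 18.3 ± 4.43 RPKM over the 12 libraries (SD), between Htr3a and Htr1f. It had 41.4 ± 7.32 CPM at L6S1 and 29.4 ± 4.74 CPM at L345 (log2 0.49 ± 0.15, edgeR adjusted p = 0.0826; 34.3 to 53.5 CPM at L6S1 and 23.9 to 35.4 CPM at L345). Htr5a averaged 3.13 CPM at L6S1 and 3.62 CPM at L345. Htr6 had at most 4 counts in a library, and Htr2c had 1 count in the 12 libraries together.

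Of 8 tested genes of serotonin synthesis, transport and breakdown, 2 were called, both higher at L6S1, where 1.45% of all tested genes were called higher. Slc22a3, 1 of the 2, had at most 2 counts in any L345 pool. Maob, monoamine oxidase B, had 4.59 ± 2.66 CPM at L6S1 and 1.5 ± 0.53 CPM at L345 (log2 1.51 ± 0.32, edgeR adjusted p = 0.0316). Leaving out male L6S1 A or B, female L345 B or C, or male L345 A, B or C ended its call (adjusted p 0.0504 to 0.0936). So did the title form as covariate (log2 1.56, edgeR adjusted p = 0.0579). Slc22a3, a low-affinity monoamine transporter gene, had 23, 17 and 12 counts in female L6S1 A, B and C and 0, 10 and 7 counts in male L6S1 A, B and C, against 1, 1 and 2 counts in female L345 B, C and D and 0, 1 and 0 counts in male L345 A, B and C (log2 3.73 ± 0.77, edgeR adjusted p = 0.0272). Its call was lost without male L6S1 B or C, female L345 B or C, or male L345 A or C (adjusted p 0.0616 to 0.0918). Slc22a3 also lost it with the title form (log2 3.85, edgeR adjusted p = 0.0535) or the glial score (2.89, 0.0524) as covariate. It passed the count filter only through the L6S1 pools, where it is high, so its call carries little weight, and with so few counts its fold is not well fixed. Maoa, monoamine oxidase A, which breaks down serotonin, was the most abundant of the list at 35 RPKM and had 163 ± 25.2 CPM at L6S1 and 129 ± 8.48 CPM at L345 (log2 0.34 ± 0.11, edgeR adjusted p = 0.0925). Tph2, which makes serotonin in neurons, averaged 4.48 CPM at L6S1 and 4.92 CPM at L345, and the plasma membrane serotonin transporter gene Slc6a4 was too scarce to test, with 0 to 13 counts a library.

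The coupling side of the G protein receptors had 3 called genes among 28 tested, lower at L6S1, where 0.877% of all tested genes were called lower. Of 8 genes of the Gi/Go side, used by 5-HT1 receptors, 2 fell: Gnai2, a Gi alpha subunit, had 107 ± 17.1 CPM at L6S1 and 164 ± 32.2 CPM at L345 (log2 -0.60 ± 0.13, edgeR adjusted p = 0.032), and Gnao1, the Go alpha subunit, 452 ± 68.3 CPM at L6S1 and 630 ± 62.2 CPM at L345 (log2 -0.49 ± 0.11, adjusted p = 0.0381). Of 13 tested genes of the Gs side, used by 5-HT4 and 5-HT7, Adcy1, a calcium-sensitive adenylyl cyclase, fell, with 5.82 ± 1.14 CPM at L6S1 and 9.62 ± 1.14 CPM at L345 (log2 -0.73 ± 0.16, adjusted p = 0.0327). None of 7 tested genes of the Gq side was called, its most abundant being Gnaq at 1231 ± 335 CPM at L6S1 and 1576 ± 74.2 CPM at L345.

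The median log2 fold changes of these lists were -0.35 for Gi/Go, -0.37 for Gq and -0.31 for Gs, against -0.06 for all tested genes, with 7 of 8, 6 of 7 and 11 of 13 values below 0, against 55.5% of all tested genes. No test of these lists was made. The calls were near the threshold. With the title form as covariate Gnao1 was at -0.41 and Adcy1 at -0.67, and neither was called (edgeR adjusted p = 0.0935 and 0.0917). Gnai2 kept its call there (-0.67, 0.0285) but lost it with the glial score (-0.51, 0.0604). Without female L6S1 B and C the log2 values were -0.58 for Gnai2, -0.37 for Gnao1 and -0.59 for Adcy1. With GC and length offsets Gnao1 was at -0.25 and Adcy1 at -0.41 (edgeR adjusted p = 0.134 and 0.0882), and of the 12 fits with 1 library left out, 7 no longer called Gnai2, 10 Gnao1 and 7 Adcy1 (adjusted p 0.0537 to 0.125). Gnai2 kept its call without female L6S1 A or C, male L6S1 C, female L345 D or male L345 B, Gnao1 without female L6S1 A or female L345 D, and Adcy1 without female L6S1 A, B or C, female L345 D or male L345 B.

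None of 7 genes for channel assembly and receptor binding was called. Ric3, a chaperone of this channel family, averaged 45.8 ± 15.8 CPM at L6S1 and 56.3 ± 2.92 CPM at L345, and Tmem35a, which encodes the chaperone NACHO, 57.5 ± 10.1 CPM at L6S1 and 47 ± 3.12 CPM at L345 (SD, n = 6 each). S100a10, which encodes p11, a protein that binds 5-HT1B and 5-HT4 receptors, was the most abundant of this list per length, at 751 RPKM. It had 1019 ± 105 CPM at L6S1 and 802 ± 91.7 CPM at L345 (log2 0.35 ± 0.11, edgeR adjusted p = 0.0857).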

How the data were processed

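RNA from 12 pools of EGFP-sorted neurons was sequenced on an Illumina HiSeq after SMARTer Ultra Low amplification of 10 ng RNA and 12 library PCR cycles, per the labels' protocols. Per the submitters' processing notes, Subread aligned the reads to GRCm38.p2 and featureCounts 1.4.5 counted them. Not given in the sources used here are the Subread version, the strand setting and the release of the annotation. For each library the authors deposited whole-number counts, CPM and RPKM of 41388 Ensembl genes. In 12 of 12 libraries the deposited CPM is the count over the library's total, and RPKM as deposited is CPM divided by the listed gene length in kilobases (relative tolerance 1e-06). Only the counts were tested. GENCODE M21 gave symbols for 40254 genes (97.3%), Tafa4 being matched through an older RefSeq symbol.

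The test was that of edgeR 4.0.16 (R 4.3.3) on the deposited counts: filterByExpr by group (15281 genes), TMM scaling, a robust quasi-likelihood fit of 4 group means (8 residual degrees of freedom, common biological coefficient of variation 0.239) and Benjamini-Hochberg adjustment over all tested genes. CPM and RPKM in the text use TMM-scaled totals, and RPKM is per kilobase of exon. Summed marker levels add such CPM values. Samples were grouped by the sex and levels in their labels. Same-lettered libraries of L6S1 and L345 were not taken as pairs. Libraries of a group differed by more than sampling noise (chi-square over degrees of freedom 9.8 to 127.7), so each counts as 1. A floor of 3 counts is 0.112 to 0.185 CPM; it covers counting error only, since reads carried no molecular identifiers. Male L345 C has 5 mice in one label and 3 in another.

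The receptor genes and all gene lists were chosen with earlier results of these data known. Named from the other lists were genes called between levels and the gene with the highest per-length level, with the 5 nearest profiles of Htr3a and of Htr3b, Ret and Scn10a. Htr5a, Htr6, Htr2c, Tph2, Slc6a4, Ric3, Tmem35a, Apoe and C1qa were named after their values were seen. Alternatives were DESeq2 1.42.0, limma-voom (limma 3.58.1) with quality weights, upper-quartile or RLE scaling, other filters, the title form as covariate, subsets of libraries, a replicate block, offsets for GC content and length (4-df splines; values for 99.4% of genes), a glial score and each library left out in turn. The code was tested on simulated counts.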

Additional observations from a re-analysis of the deposited data

Results flagged for a closer look

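Male L345 B stood apart from the other L345 pools in 2 of the 20 sets of 6 pools examined (10 receptor genes at each level), which chance alone flags in about 1 of 20. Its Htr1f level of 43.3 CPM was the highest of the 6, with the gap to the next pool making up 0.68 of the whole range. Its Htr1d level of 15.9 CPM was the lowest of the 6, again with a gap of 0.68 of the range. The limit for a set of 6 is 0.625. That pool came from 2 mice and 12 ganglia, as did female L345 C. Htr1f and the itch class genes moved together in it, and the part of pool size was not tested.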

How the results depend on the processing

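The 32 fold changes examined were recomputed under the alternatives, which gave 761 values, of which 621 kept their direction and side of the threshold, 106 lost a call, 25 gained one and 9 changed sign. The number of receptor genes called between levels, 1 by edgeR, was 2 with DESeq2 (Htr3a and Htr7), 3 with limma-voom (Htr1b, Htr3a and Htr7), and 0 with the title form as covariate or in the 8 libraries of 1 title form; leaving out 1 library gave 0 to 1. Without the count filter it was 1, but the gene was Htr7. In males it was 2 with limma-voom and 0 otherwise. In females it was 1 with DESeq2 and 0 to 1 when 1 library was left out, Htr3a each time. Without female L6S1 A, where Htr3a was called in females, so were 3843 of 15683 genes. The female L6S1 pools left in that fit, B and C, both have the 9CGNAV title form. The other fits with 1 library left out called 17 to 55 genes in females. Between sexes and for the interaction it was 0 under every alternative. Values that changed sign were Htr3b at -0.05 with limma-voom, -0.02 with GC and length offsets and -0.04 to 0.16 with 1 library left out, Htr2a at 0.01 with the offsets, and, with the glial score, Htr1f at -0.40, against 0.18 in the reported fit, and Htr7 in females at -0.02, against 1.33. The cause was not tested. Htr7 was not tested under the filter of 1 CPM in 6 libraries.

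Libraries of both levels share letters, and same-lettered libraries of a sex had correlated deviations of 0.23 and 0.02 in females and 0.05, 0.08 and 0.09 in males. Each male L6S1 library and female L6S1 B correlated best with its own letter, and female L6S1 C best with female L345 D (0.24). The letters were not taken as pairs because the labels do not tell whether mice were shared. With a replicate block 3 receptor genes were called between levels (Htr3a, Htr4 and Htr7), among 5335 genes in all against 356, and Htr3b was at -0.01. In females that fit called 1 receptor gene (Htr3a), among 4843 of 15281 genes against 55 in the reported fit. The female value there rests on letters B and C, since female L6S1 A and female L345 D have no partner. Of these pools, those of L6S1 have the 9CGNAV title form and those of L345 the RetFloxEGFP form. Level and title form cannot be told apart in that female comparison. Over all genes the level count ran from 80 to 4031 with 1 library left out and was 1518 with DESeq2, 3268 with limma-voom, 841 with no filter, 125 with the title form and 1269 with the glial score. Depth limits Htr2b and Htr7, with 49 and 186 counts in all.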
